A study of Mus musculus with 3 samples.

Results

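The genes described here encode proteins of the mitochondrial ribosome. They were taken as every gene of the mouse annotation (mm10) whose symbol begins with Mrpl or Mrps followed by a number. Proteins of this ribosome with other symbols are left out. The rule gave 84 of 49997 annotated genes, of which 78 are protein-coding and 6 are pseudogenes. All 78 protein-coding genes had, within the gene body and 2 kb on either side, at least 1 region with a peak in every library. The 6 pseudogenes had none, and 4 of them had no peak there in any library. A start was given in the RefSeq tables for 69 of the protein-coding genes, and all 69 had a region with a peak in every library within 1000 bp of it, which is its promoter region.

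Open chromatin was measured in single kidney cells by mtscATAC-seq, in which fixed and permeabilised cells are cut by a transposase that inserts into accessible DNA. All mice carried a point mutation in trnE, the mitochondrial gene for the glutamate tRNA, and no sample without it was analysed here. Old replicate 1 was a kidney at 75 weeks with a mutation load of 75%, old replicate 2 a kidney at 75 weeks with a load of 80%, and the young library a kidney at 3 weeks with a load of 80%. Whether the old libraries came from separate animals is not stated, so the p-values rest on a spread between samples that may be technical. Neither sex nor strain is given in the sources used here.

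The mitochondrial ribosome translates the few messages of mitochondrial DNA, all of which encode membrane subunits of the respiratory chain and ATP synthase. Its RNAs come from mitochondrial DNA, but every protein of its large (Mrpl) and small (Mrps) subunits is encoded in the nucleus, made in the cytosol and imported. About the ribosome's bacterial core sit proteins that exist only in mitochondria, and the tubule cells of the kidney, which are rich in mitochondria, depend on it for the respiration that drives reabsorption.

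The files held 5656 and 4302 barcodes for old replicates 1 and 2 and 4440 for the young mouse, with total counts of 96093221, 64729297 and 110871506, and 5315, 3950 and 3976 cells were kept. Old replicate 1, although labelled kidney, was mostly immune cells, with 61.7% macrophage or dendritic-like and 2.18% proximal tubule-like cells, whereas old replicate 2 was 71.9% proximal tubule-like and the young library 80.6%. The classes were rebuilt from the counts and named by marker genes, with all regions in the windows of the ribosomal protein genes left out of the clustering. Cells per class in old replicates 1 and 2 and the young one were 116, 2840 and 3203 proximal tubule-like, 51, 322 and 208 loop to collecting duct-like, and 188, 106 and 50 endothelium-like. The immune classes had at least 20 cells in old replicate 1 and the young mouse only, with 3279 and 118 macrophage or dendritic-like, 1228 and 75 T or NK-like, and 146 and 127 B or plasma-like cells. Libraries shared between 28 and 39 cell barcodes. Of the 6 proximal tubule-like clusters, 1 held at least 20 cells of every library, so library and tubule state are hard to tell apart, and each comparison between classes below had library as a term.

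The called promoter regions lay around the starts. Widths and offsets were not taken for other promoters, so those below are not read as a trait of the members. Of 75 given starts of the 69 genes, 73 lay inside a region common to the libraries, whose centre was a median of 50.5 bp before the start and whose width was a median of 922 bp. In RefSeq promoters of 250 bases before to 50 after the start, the ETS core CCGGAAG, read on both strands, was in 26 of the 75 (34.7%), against 11.6% of 21263 promoters of protein-coding genes, 16.5% of the 13648 of them with a tested promoter region, and 36.8% of 68 promoters of cytosolic ribosomal protein genes. NRF1, YY1 and ETS factors such as GABP are known activators of nuclear genes for mitochondrial proteins. The NRF1 core GCGCATG was in 10.7% of the members' promoters and in 4.80% of all, and the YY1 core GATGGCG in 10.7% and 4.29%. Among promoters with a tested region the NRF1 and YY1 shares were 6.46% and 5.91%. Among those of cytosolic ribosomal protein genes they were 13.2% and 10.3%. The SP core GGGCGG was in 52.0%, against 46.2% of all promoters and 62.3% of those with a tested region. None of the 4 cores was in 17 of the 75. A match is a description of the letters and not a bound site.

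The promoter stretches below, each of 200 bases and read from GRCm38.p6 in RefSeq, run from 170 bases before the start to base 30 of the transcript, 5′ to 3′ on the gene's strand, with capitals marking any of the 4 cores on either strand. They are shown because the results turn on these genes: the highest and lowest promoters (Mrps18b and Mrpl3), 4 of those called higher in immune classes (Mrpl17, Mrpl41, Mrpl24 and Mrps22), 1 of those called lower in endothelium (Mrpl36), and Mrpl12, whose strongest tubule signal lay elsewhere.
Mrps18b (chr17:35916411-35916610, minus strand): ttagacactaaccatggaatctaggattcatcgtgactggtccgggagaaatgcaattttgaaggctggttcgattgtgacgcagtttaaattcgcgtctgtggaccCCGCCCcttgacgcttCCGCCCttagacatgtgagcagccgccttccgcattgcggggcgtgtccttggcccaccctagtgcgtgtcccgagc
Mrpl17 (chr7:105811058-105811257, minus strand): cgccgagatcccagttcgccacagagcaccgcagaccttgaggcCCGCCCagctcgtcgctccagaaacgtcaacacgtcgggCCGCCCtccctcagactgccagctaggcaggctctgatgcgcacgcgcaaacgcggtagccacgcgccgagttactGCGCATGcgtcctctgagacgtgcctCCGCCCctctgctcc
Mrpl41 (chr2:24975069-24975268, minus strand): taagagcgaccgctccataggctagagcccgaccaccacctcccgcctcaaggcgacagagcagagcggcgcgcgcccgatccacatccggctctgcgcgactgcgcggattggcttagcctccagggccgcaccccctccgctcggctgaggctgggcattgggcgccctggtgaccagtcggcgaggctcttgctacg
Mrpl24 (chr3:87919374-87919573, plus strand): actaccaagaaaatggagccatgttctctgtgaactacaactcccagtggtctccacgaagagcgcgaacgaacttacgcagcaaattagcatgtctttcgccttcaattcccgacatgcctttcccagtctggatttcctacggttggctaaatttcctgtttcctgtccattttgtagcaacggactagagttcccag
Mrps22 (chr9:98601650-98601849, minus strand): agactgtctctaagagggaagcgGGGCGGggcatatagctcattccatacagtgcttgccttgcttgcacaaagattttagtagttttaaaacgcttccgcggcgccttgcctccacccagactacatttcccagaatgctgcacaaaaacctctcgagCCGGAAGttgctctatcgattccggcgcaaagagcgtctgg
Mrpl12 (chr11:120484467-120484666, plus strand): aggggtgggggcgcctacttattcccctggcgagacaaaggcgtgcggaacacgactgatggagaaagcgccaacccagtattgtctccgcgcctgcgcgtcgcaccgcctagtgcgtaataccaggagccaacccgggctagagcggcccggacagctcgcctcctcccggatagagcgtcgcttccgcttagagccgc
Mrpl36 (chr13:73330839-73331038, plus strand): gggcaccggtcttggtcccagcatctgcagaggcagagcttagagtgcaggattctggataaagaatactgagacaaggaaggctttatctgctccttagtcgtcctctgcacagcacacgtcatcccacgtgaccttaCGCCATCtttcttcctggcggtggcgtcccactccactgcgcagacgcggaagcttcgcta
Mrpl3 (chr9:105053098-105053297, plus strand): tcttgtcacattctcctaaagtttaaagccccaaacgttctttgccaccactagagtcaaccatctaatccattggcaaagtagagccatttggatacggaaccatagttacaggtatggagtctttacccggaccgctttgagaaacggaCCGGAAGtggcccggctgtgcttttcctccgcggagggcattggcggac
In these stretches the Mrpl17 promoter held 3 SP cores and 1 NRF1 core, Mrps18b held 2 SP cores, and Mrps22 held 1 ETS and 1 SP core. Mrpl3, the lowest promoter, held 1 ETS core and Mrpl36 held 1 YY1 core, while Mrpl41, Mrpl24 and Mrpl12 held none of the 4. Members with the ETS core anywhere in the longer window had a median level of 37.9 CPM per kb (defined below) and those without it 43.6, and 9 of 26 and 8 of 43 passed the test over all cell classes described below.

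Promoter openness spanned a wide range among the ribosomal protein genes. The level is given as CPM, the count relative to the total of its class and library scaled by the TMM method, per kilobase of promoter region (CPM per kb), averaged over the 6 classes compared. The median of the 69 members was 41.0 CPM per kb, the 57.5th percentile of tested protein-coding promoters, and the range was from 9.93 for Mrpl3 to 183.6 for Mrps18b. The highest levels after Mrps18b, which encodes one of the mammalian versions of bacterial S18, were 176.9 for Mrpl34, 176.2 for Mrpl18, 157.0 for Mrpl17, 155.3 for Mrps14, 132.8 for Mrps12, 118.4 for Mrpl47 and 99.9 for Mrpl51. Mrps12 belongs to the decoding centre, and Mrpl17 lies near the exit of the peptide tunnel.

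At the low end stood Mrps2 at 21.2 CPM per kb, Mrps10 at 20.5, Mrpl52 at 19.98, Mrpl16 at 19.5, Mrps18a at 18.5, Mrps25 at 17.7, Mrpl53 at 12.98 and Mrpl3 at 9.93. Mrpl3, a core protein of the large subunit, had 9.20 and 6.15 CPM per kb in macrophage or dendritic-like cells of old replicate 1 and the young mouse, and 11.1, 14.3 and 11.1 in proximal tubule-like cells of old replicates 1 and 2 and the young one. Mrps18b had 201.5 and 175.0 in the same macrophage or dendritic-like sums and 163.5, 141.3 and 147.2 in the proximal tubule-like ones. No library or class brought these genes near each other. A promoter region was shared with the start of another protein-coding gene for 25 of the 69 members, at a median level of 50.9 CPM per kb, against 35.8 for the other 44, and counts there cannot be assigned to either gene. The shared regions of highest level were those of Mrpl18 with Tcp1, Mrps12 with Sars2, Mrpl47 with Ndufb5, Mrpl51 with Ncapd2 and Mrpl50 with Zfp189. Mrpl46 and Mrps11 share 1 region and so have the same counts.

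**Figure D1:**
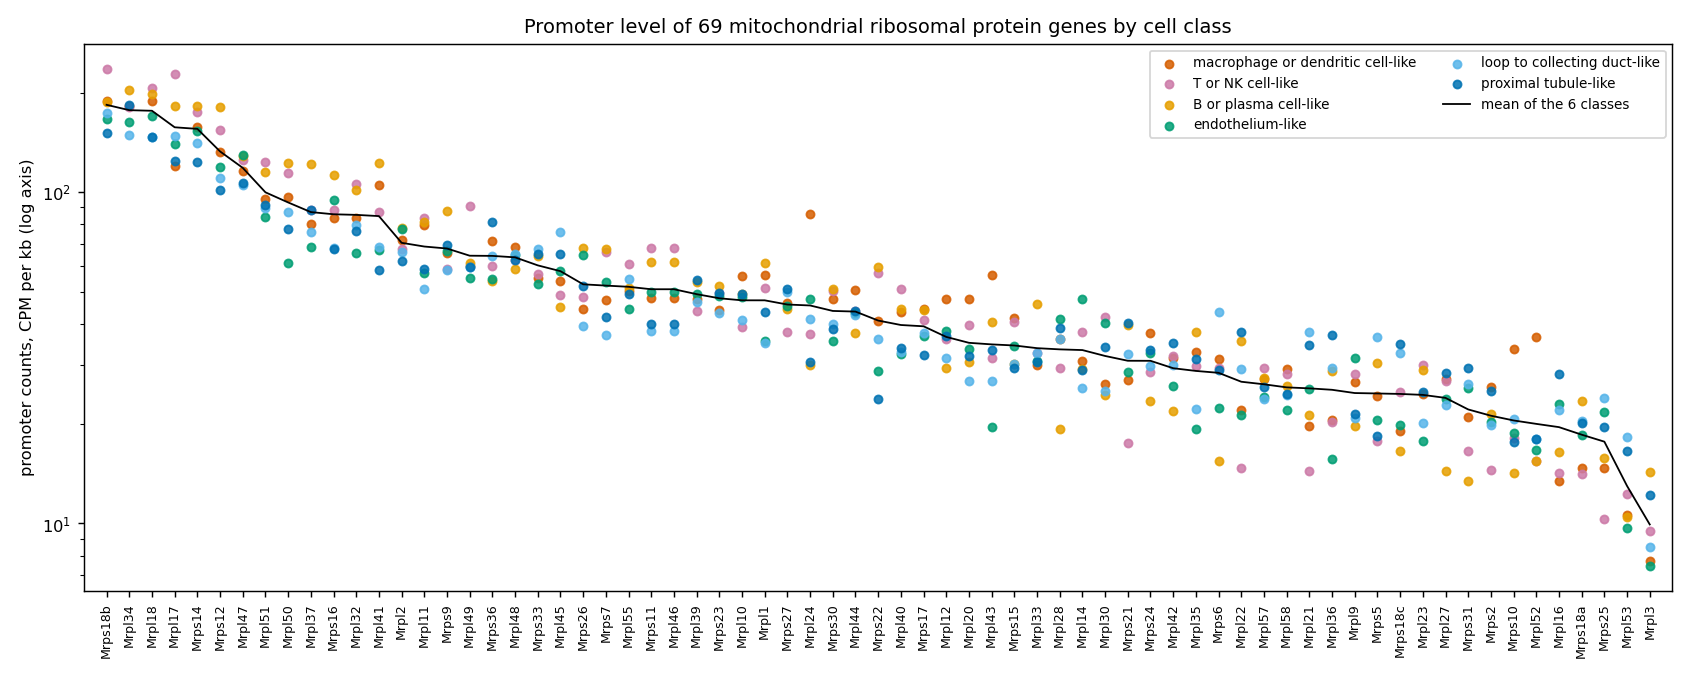
Promoter level of the 69 genes in CPM per kb on a log axis, ordered by level. Each point is the mean of 1 cell class over its libraries and the black line the mean of the 6 classes, falling to 9.93 for Mrpl3 at the right, against 183.6 for Mrps18b at the left, with the classes of most genes close together.

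The groups of the ribosome had overlapping levels. The 25 tested large subunit proteins with bacterial relatives had a median of 33.8 CPM per kb, and the 20 large subunit proteins listed as particular to mitochondria a median of 46.5. Mrpl47 was listed with the second group although it is a relative of bacterial L29. The 16 small subunit proteins with bacterial relatives had a median of 36.9 and the 7 particular to mitochondria a median of 45.8. Mrps36, whose product is now known as a subunit of the oxoglutarate dehydrogenase complex rather than of the ribosome, stood at 64.2.

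The spread between cell classes was small for these genes. The SD of the log2 level between the 6 class means had a median of 0.29 over the 69 members, against 0.45 over all 13345 tested promoters and 0.40 over the protein-coding ones. No member had an SD above 1, against 30.7% of all promoters. Scaling by total counts alone gave 0.40 against 0.54, and centring each sum on its median over all promoters gave 0.33 against 0.48.

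Low-level promoters vary most, and at matched level the gap was narrower. With protein-coding promoters split by level into 5 bands of equal size, the 16 members of band 2 had a median SD of 0.41 and the other genes there 0.65. In band 3 the values were 0.33 for 19 members and 0.36 for the others, in band 4 0.25 for 20 members and 0.29 for the others, and in band 5, the highest, 0.25 for 13 members and 0.26 for the others. Mrpl3 alone fell in the lowest band, with an SD of 0.34 against a median of 1.57. Related lists behaved alike: the median SD was 0.26 for 58 cytosolic ribosomal protein genes and 0.32 for 33 genes listed under mitochondrial translation factors and ribosome assembly. The latter list also holds mitochondrial ribosomal proteins with other symbols, such as Dap3 and Ptcd3.

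**Figure D2:**
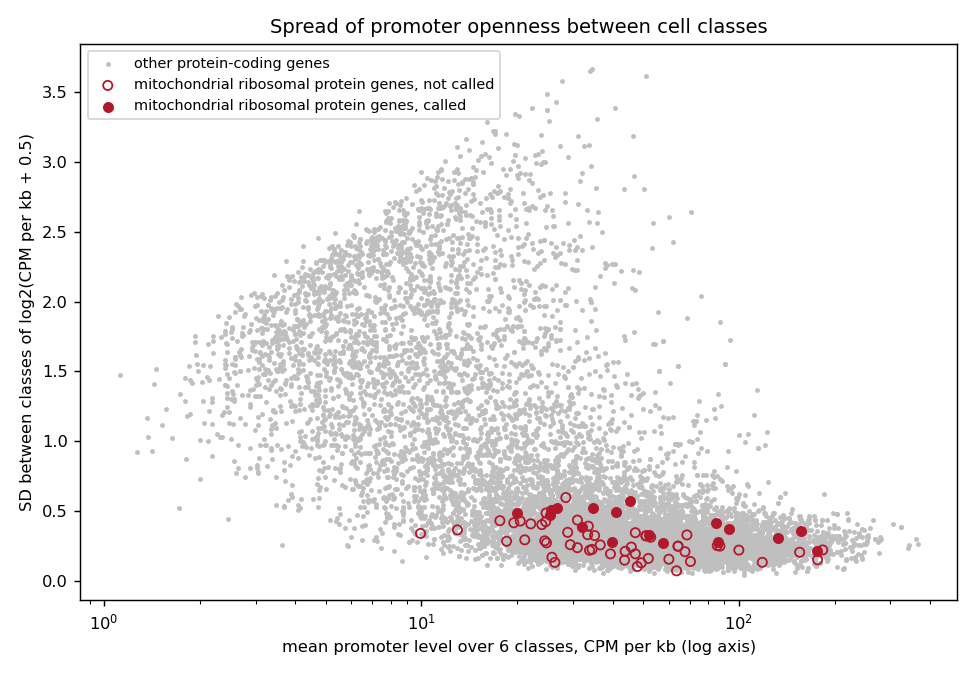
Standard deviation between the 6 classes of log2(CPM per kb + 0.5) against the mean promoter level on a log axis, 1 point per protein-coding gene. The mitochondrial ribosomal protein genes, in red and filled where the test over all classes passed, lie between 0.07 and 0.60, along the lower part of the grey cloud.

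With TMM the spread between libraries within a class was as large. With total counts alone the members' median SD was 0.40 between classes and 0.33 between libraries. With each sum centred on its median it was 0.33 and 0.32, so the order depends on the scaling. The SD between classes is of means over libraries and the SD between libraries is of single sums, so they are not like measures. The values that follow are with TMM. The median SD between libraries was 0.33 for the members and 0.39 for all promoters. The SD between classes was under the SD between libraries in 40 of 69 members (58.0%), against 33.8% of all promoters. Mrpl48 varied least between classes, with an SD of 0.07 and class means from 58.8 CPM per kb in B or plasma-like to 68.4 in macrophage or dendritic-like cells. Mrps6, a small subunit protein whose promoter region also holds the start of Slc5a3, varied most, with an SD of 0.60 and class means from 15.4 in B or plasma-like to 43.4 in loop to collecting duct-like cells.

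Single cells were also compared at a fixed depth, with no TMM scaling. Cells were thinned to 1500 fragments each, since the unthinned share of cells with a promoter count followed depth: averaged over members it was 14.9%, 19.7% and 33.5% in proximal tubule-like cells of old replicates 1 and 2 and the young one, with medians of 2902.5, 5988 and 12172 fragments per cell. After thinning the shares were 5.41%, 5.38% and 5.86%, against 5.11%, 4.86% and 5.14% for all tested promoters. T or NK-like cells had 9.80% and 9.35% in old replicate 1 and the young mouse, against 7.87% and 7.30% for all promoters.

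The other immune classes lay close to these, with 8.78% and 8.19% in macrophage or dendritic-like cells, 8.81% and 9.40% in B or plasma-like cells and 9.47% in neutrophil-like cells of old replicate 1. Endothelium-like cells had 7.42%, 7.30% and 7.17% in the 3 libraries, and the loop to collecting duct-like ones had 5.55%, 6.17% and 6.49%. Every immune sum was above every tubule sum, for the members and for all promoters alike. Thinning left out 41 of 116 proximal tubule-like cells of old replicate 1 and 80 of 127 B or plasma-like cells of the young library as too shallow.

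For single genes the shares spanned the same range as the levels. A count at the Mrps18b promoter was found in 25.5% of thinned macrophage or dendritic-like cells of old replicate 1 (95% exact binomial interval 23.9% to 27.1%) and 19.6% of those of the young library (12.6% to 28.4%), against 21.3%, 14.5% and 13.7% of proximal tubule-like cells of old replicates 1 and 2 and the young one. Mrpl3 had 1.30% (0.933% to 1.77%) and 0.935% in the same macrophage or dendritic-like cells and 4%, 1.41% and 1.01% in the proximal tubule-like ones. Intervals cover counting error only. As a measure of background, the tubule transporter gene Slc34a1 had 0.0978% and 0% of the macrophage or dendritic-like cells, the second of 107 cells with an upper limit of 3.39%, against 6.67%, 7.27% and 8.90% of proximal tubule-like cells.

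Each class was then compared with proximal tubule-like cells across all 13345 promoters, to show which members differ between kidney cell classes (edgeR's quasi-likelihood test on summed counts with library as a term, Benjamini-Hochberg adjusted p under 0.05). The test over all classes called 17 of 69 members (24.6%), against a background of 57.6% of all promoters. Of the 17, 9 share their promoter region with another protein-coding start, as do 25 of the 69. At levels between the members' quartiles, 26.3 and 64.2 CPM per kb, it called 8 of 35 members (22.9%), against 43.3% of 4282 promoters. The background includes genes whose regions defined the classes, while the members' regions were left out, which favours the background share. With the members' regions kept in the clustering 99.3% of cells had the same class. The small proximal tubule-like class of old replicate 1 was less stable. It rose from 116 to 172 cells, with median counts per cell of 6999 and 13877, while the unnamed cells of that library fell from 141 to 85.

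The single classes gave few calls of modest size. T or NK-like cells had 13 members higher and 4 lower, against a background of 17% and 26.4% of promoters (43.4% together). Macrophage or dendritic-like cells had 6 higher and 3 lower, against 14.3% and 22.8% (37.1%). B or plasma-like cells had 7 higher and 2 lower, against 13.1% and 23% (36.1%), and endothelium-like cells 1 higher and 3 lower, against 9.59% and 15.7% (25.3%). Loop to collecting duct-like cells had 0 of 69 called by edgeR (9.97%), 0 by DESeq2 and 1 at an unadjusted p under 0.05. These splits depend on the scaling. DESeq2's size factors (RLE) in edgeR gave 2 higher and 7 lower in T or NK-like, 3 and 6 in macrophage or dendritic-like, 6 and 3 in B or plasma-like, and 0 and 4 in endothelium-like cells, while total counts alone gave 37 and 0, 33 and 0, 28 and 0, and 18 and 1, with 4 and 0 in loop to collecting duct-like cells. In the same order of classes the share of all promoters called was 40.1%, 35.0%, 35.0% and 24.9% with RLE. With total counts it was 64.1%, 59.4%, 52.6%, 46.0% and 14.0%.

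The median log2 difference of all promoters moves with the scaling, so the members are best read against it. With TMM the medians of members and of all promoters were 0.05 and -0.06 in T or NK-like cells, 0.10 and 0.00 in macrophage or dendritic-like, 0.06 and -0.14 in B or plasma-like, -0.07 and -0.02 in endothelium-like, and -0.06 and 0.01 in loop to collecting duct-like cells. With RLE the medians of all promoters were -0.22, -0.14, -0.22, -0.07 and -0.01, and with total counts 0.54, 0.46, 0.41, 0.39 and 0.23. The gap between members and all promoters was the same to 0.01 under the 3 scalings, at 0.12, 0.10, 0.20, -0.05 and -0.07. In these class sums the median member thus lay within 0.20 on the log2 scale of the typical promoter.

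**Figure D3:**
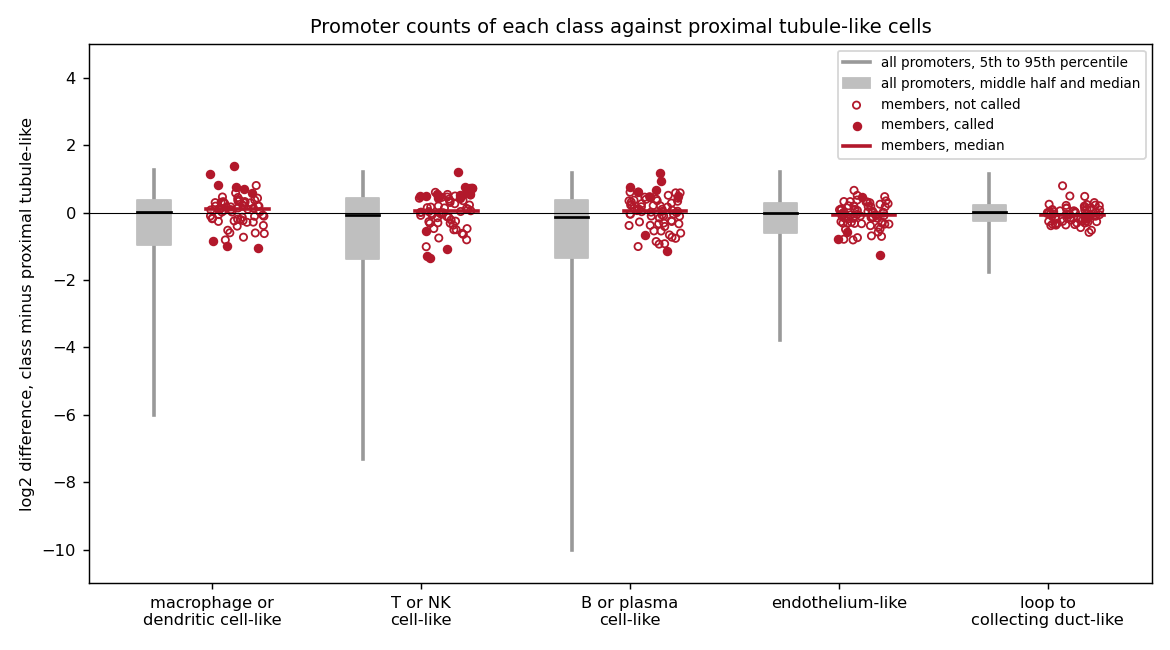
Log2 difference of promoter counts between each class and proximal tubule-like cells, with all 13345 promoters as grey bars (line from the 5th to the 95th percentile, box for the middle part with its median) and the 69 members as red points, filled where called. The members cluster within the grey boxes around medians from -0.07 to 0.10, and their most distant points are 1.37 and -1.36.

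In all, 27 members were called in at least 1 class and 42 in none, making 39 pairs of a member and a class, 10 of them with a fold of 2 or more. Mrpl43, a large subunit protein particular to mitochondria, was the one member called both higher and lower. Of the 39 pairs, 12 were called in the same direction under all 3 scalings, 11 higher and 1 lower. Total counts raised the median of all promoters in every class and left few lower calls. The lean to higher calls is therefore not read as a trait of the members. The share of all promoters called under all 3 scalings, or also without each library in turn, was not counted. The 12 pairs are therefore not read as a trait of the members either. The immune classes come from 2 libraries, so leaving out either leaves 1 immune sum, which is assumed to vary like the other classes. With that assumption 6 of these were also called without each library in turn: Mrpl41 and Mrps16 in B or plasma-like, Mrps22 and Mrpl17 in T or NK-like, and Mrpl24 and Mrpl41 in macrophage or dendritic-like cells.

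Mrpl24, whose product sits by the exit of the peptide tunnel, was highest in macrophage or dendritic-like cells. It had 79.6 and 92.4 CPM per kb there in old replicate 1 and the young mouse, against 21.1, 34.6 and 36.8 in proximal tubule-like cells of old replicates 1 and 2 and the young one, a log2 difference of 1.37 ± 0.28 (SE, edgeR adjusted p 0.000238). The groups did not overlap, as in all 39 called pairs. Levels in the other classes were 47.9 and 26.5 in T or NK-like, 20.7 and 39.3 in B or plasma-like, 35.2, 41.3 and 65.9 in endothelium-like and 51.4, 33.2 and 39.95 in loop to collecting duct-like cells. In thinned cells a count at Mrpl24 was found in 10.6% (9.55% to 11.8%) and 9.35% of macrophage or dendritic-like cells, against 2.67%, 3.05% and 3.89% of proximal tubule-like cells.

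Mrps22, a small subunit protein particular to mitochondria whose mutation in people can cause heart and kidney tubule disease, was higher in all 3 immune classes. It had 45.5 and 68.5 CPM per kb in T or NK-like, 31.4 and 87.3 in B or plasma-like and 42.1 and 39.5 in macrophage or dendritic-like cells, against 15.7, 28.7 and 26.9 in proximal tubule-like cells. The log2 differences were 1.19 ± 0.35 (edgeR adjusted p 0.00595), 1.18 ± 0.37 (0.0123) and 0.83 ± 0.33 (0.0487). Each immune value was above each proximal tubule-like value, although the B or plasma-like pair lay far apart. The last of these was lost with RLE (edgeR adjusted p 0.118) and whenever 1 library was left out.

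Mrpl17 was highest in T or NK-like cells, with 214.3 and 241.2 CPM per kb there, against 142.3, 112.2 and 119.2 in proximal tubule-like cells, a log2 difference of 0.77 ± 0.16 (edgeR adjusted p 0.000171). B or plasma-like cells had 184.0 and 179.3, a difference of 0.47 ± 0.17 (0.0255) that was not called with RLE (0.0662). Macrophage or dendritic-like cells, with 135.6 and 104.7, overlapped the proximal tubule-like values. Mrpl41, a large subunit protein particular to mitochondria whose promoter region also holds the start of Pnpla7, had 111.3 and 133.8 in B or plasma-like cells and 118.8 and 91.1 in macrophage or dendritic-like cells, against 61.5, 53.4 and 60.0 in proximal tubule-like cells. Its log2 differences were 0.95 ± 0.18 (edgeR adjusted p 0.000108) and 0.77 ± 0.16 (0.000355), and 0.52 ± 0.17 (0.0157) in T or NK-like cells.

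B or plasma-like cells had 3 further small subunit members higher. Mrps16, whose loss in people causes a fatal disorder of mitochondrial translation, had 103.1 and 122.0 CPM per kb, against 60.8, 72.4 and 69.2 in proximal tubule-like cells, a log2 difference of 0.76 ± 0.20 (edgeR adjusted p 0.00341). Mrps12 had 147.0 and 214.0, against 83.7, 108.6 and 112.0, a difference of 0.67 ± 0.20 (0.00809), and Mrps14 differed by 0.48 ± 0.16 (0.0197). Mrpl50, of the large subunit, had 110.4 and 134.5, against 66.6, 83.2 and 82.0, a difference of 0.61 ± 0.20 (0.0152). The B or plasma-like groups did not overlap with the proximal tubule-like groups for any of these. The same held for all 39 called pairs, so it adds nothing to the calls.

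Mrpl43, whose promoter region also holds the start of Twnk, the gene of the mitochondrial DNA helicase, had 60.2 and 52.5 CPM per kb in macrophage or dendritic-like cells and 24.2, 17.9 and 16.4 in endothelium-like cells, against 39.2, 30.5 and 30.3 in proximal tubule-like cells. The differences were 0.69 ± 0.22 (edgeR adjusted p 0.0115) and -0.78 ± 0.23 (0.0103), the second not called with total counts (-0.38, adjusted p 0.184). Mrpl36, a small zinc-binding protein of the large subunit, was lower in endothelium-like cells, with 12.5, 24.0 and 10.4, against 42.3, 35.5 and 33.5. Its difference of -1.26 ± 0.34 (edgeR adjusted p 0.00624) was the one lower call that held under all 3 scalings.

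The remaining calls in T or NK-like cells included 8 more higher members with log2 differences from 0.43 to 0.73, all lost with RLE. Mrpl46 and Mrps11 share a region and differed by 0.73, Mrps7 by 0.72, Mrpl40 and Mrpl18 by 0.54, Mrps18b by 0.49, and Mrps14 and Mrpl51 by 0.43. Mrpl50, Mrpl41 and Mrps16 differed there by 0.57, 0.52 and 0.50 and were also lost with RLE. The lower members were Mrpl22 at -1.36, Mrpl21 at -1.29, Mrps21 at -1.08 and Mrpl45 at -0.53. Mrpl22, which lines the peptide tunnel, had 16.7 and 12.6 CPM per kb in T or NK-like cells, against 39.8, 35.8 and 38.0 in proximal tubule-like cells (edgeR adjusted p 0.00452, SE 0.38). None of the 4 was called with total counts, where Mrpl45 turned to 0.07.

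In macrophage or dendritic-like cells Mrpl52 was higher by 1.13 ± 0.39 and Mrpl11, of the base of the factor-binding stalk, by 0.58 ± 0.23, while Mrps18c, Mrpl21 and Mrpl16 were lower by log2 differences of -0.85, -0.98 and -1.06 (edgeR adjusted p from 0.0221 for Mrpl52 to 0.0494 for Mrpl11). In B or plasma-like cells Mrpl28 and Mrpl45, the protein that fixes the ribosome to the inner membrane, differed by -1.15 ± 0.34 and -0.65 ± 0.23 (edgeR adjusted p 0.00889 and 0.0247). In endothelium-like cells Mrps16 differed by 0.47 ± 0.17 and Mrps36 by -0.58 ± 0.22 (edgeR adjusted p 0.0378 and 0.0484). Each of these calls in 3 classes was lost under RLE or under total counts.

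Several members with particular roles were called in no class. Mrpl12, the stalk protein that recruits translation factors, had 50.5 and 45.0 CPM per kb in macrophage or dendritic-like cells, against 45.6, 32.7 and 31.9 in proximal tubule-like cells. Mrpl44, a relative of RNase III, had 52.1 and 49.3, against 40.6, 46.1 and 44.6. Mrpl58, which releases peptides from stalled ribosomes, had 29.7 and 28.7, against 25.98, 24.2 and 23.8. Mrps30 and Mrps18a, which carry small subunit names but sit in the large subunit, had 48.0 and 47.0, against 29.5, 44.6 and 41.7, and 17.7 and 11.7, against 22.4, 19.4 and 18.4.

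Other members far from 0 missed the threshold. In B or plasma-like cells Mrps18c stood at -1.01, Mrps6 at -0.94 and Mrpl27 at -0.92 (edgeR adjusted p 0.0526, 0.116 and 0.112), and in T or NK-like cells Mrpl16 at -1.01 (0.0684). In macrophage or dendritic-like cells Mrpl22 stood at -0.81 and Mrps10 at 0.80 (edgeR adjusted p 0.0603 and 0.160). In endothelium-like cells Mrpl14 stood at 0.66, Mrps18c at -0.81 and Mrpl22 at -0.79. In loop to collecting duct-like cells the highest were Mrps5 at 0.79, Mrps22 at 0.49 and Mrps6 at 0.48 and the lowest Mrpl3 at -0.59 and Mrpl35 at -0.52. The counts below with 1 library left out are not set against the share of all promoters called in the same fits. A change in them can thus not be told from a change in the calls over all promoters. Leaving out 1 library took many of the calls: the test over all classes called 13 members without old replicate 1, 8 without old replicate 2 and 8 without the young library. In the same order the single classes gave 7, 10 and 7 in T or NK-like, 6, 2 and 3 in macrophage or dendritic-like, 13, 6 and 3 in B or plasma-like and 3, 1 and 3 in endothelium-like cells.

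Other genes of translation were counted in the same fits. Of the 33 tested genes of the factor and assembly list, which also holds some ribosomal proteins, 4 were higher and 1 lower in T or NK-like, 2 and 2 in macrophage or dendritic-like, 2 and 4 in B or plasma-like, 1 and 1 in endothelium-like and 0 and 1 in loop to collecting duct-like cells, with median log2 differences of 0.03, 0.19, -0.04, -0.10 and -0.01. Of 58 cytosolic ribosomal protein genes, 7 were higher and 2 lower in T or NK-like, 10 and 0 in macrophage or dendritic-like, 8 and 2 in B or plasma-like, 6 and 0 in endothelium-like and 0 in loop to collecting duct-like cells, with medians of 0.29, 0.21, 0.13, 0.14 and -0.05. The lists were not tested against each other.

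Counts over the whole gene window, the body and 2 kb on either side, were called between classes more often than promoter counts. The window fit had TMM factors of its own. The test over all classes called 37 of 78 members, against a background of 70.3% of 23532 genes. T or NK-like cells had 26 members higher and 5 lower, against a background of 22.8% and 32.1% of windows (54.9% together), and macrophage or dendritic-like cells 18 and 5, against 21.4% and 29.2% (50.5%). B or plasma-like cells had 21 and 5, against 17.6% and 29% (46.6%), endothelium-like cells 8 and 7, against 14.9% and 22.7% (37.7%), and in loop to collecting duct-like cells the split was 1 and 3, against 6.71% and 12% (18.7%). The medians of members and of all windows were 0.37 and -0.15 in T or NK-like, 0.32 and -0.02 in macrophage or dendritic-like, and 0.26 and -0.21 in B or plasma-like cells. With RLE the splits were 17 and 8, 8 and 6, 14 and 7, 5 and 8, and 1 and 4, and with total counts 40 and 3, 34 and 4, 34 and 4, 22 and 7, and 5 and 3. The promoter region held a median of 96.2%, 87.6% and 87.3% of a member's window counts in old replicates 1 and 2 and the young one. The TMM factor of T or NK-like cells of old replicate 1 was 1.21 for promoters and 1.01 for windows. Mrps22 and Mrps7 had 100% of their window counts in the promoter region in every library. Their T or NK-like differences were still 1.57 and 1.07 for windows, against 1.19 and 0.72 for promoters. How many of the added window calls rest on the scaling was not tested. The share of all windows called with RLE or with total counts is not given beside the members' splits. Those splits are therefore not read as a trait of the members.

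Regions away from the starts were compared in the same way. Of 54 tested regions outside the promoters of members, 26 (48.1%) were called over classes, against 26 of 75 promoter regions (34.7%) and a background of 69.8% of 55642 regions. With the 9 genes of no given start set aside it was 20 of 34 (58.8%). Levels of these regions are given in CPM and not per length. In 5 of the 54 regions proximal tubule-like cells were higher than each other class, every difference called, against 10.4% of all regions under the same rule, a share close to that of the members. The share of all regions called lower than in proximal tubule-like cells was 34.5% in macrophage or dendritic-like, 39.1% in T or NK-like, 35.2% in B or plasma-like, 28.6% in endothelium-like and 16.3% in loop to collecting duct-like cells. The region fits were added after the data had been seen.

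The strongest was a region 329 bp past the end of Mrpl12, at chr11:120489083-120490091 (mm10). It had 14.6 and 20.3 CPM in macrophage or dendritic-like, 10.6 and 0 in T or NK-like, 8.97 and 19.4 in B or plasma-like, 20.1, 7.26 and 26.7 in endothelium-like and 27.9, 41.3 and 31.0 in loop to collecting duct-like cells, against 152.6, 132.0 and 132.0 in proximal tubule-like cells. The 0 is of 441195 counts, which allows up to 5.73 CPM. The log2 differences from proximal tubule-like cells were -2.62, -3.33, -3.29, -2.78 and -1.97 (edgeR adjusted p up to 5.0e-06). The promoter of the same gene missed the threshold (edgeR adjusted p 0.473 over all classes).

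Of the other 4 such regions, 3 lay inside genes. A region within Mrps21, which encodes a small protein of the small subunit, at chr3:95864792-95865701, had at most 0.479 CPM in the immune and endothelium-like sums and 0, 8.25 and 9.09 in loop to collecting duct-like cells, against 34.0, 42.1 and 34.7 in proximal tubule-like cells. A region within Mrps35, at chr6:147064279-147065219, had at most 1.35 CPM in the immune and endothelium-like sums and 0, 2.25 and 5.88 in loop to collecting duct-like cells, against 24.1, 31.8 and 21.8. A region 1876 bp past the end of Mrpl14, at chr17:45700371-45701305, and 1 inside it, at chr17:45694959-45695926, had 22.0, 15.4 and 14.9 and 39.5, 25.2 and 24.1 CPM in proximal tubule-like cells. In the other classes the first had at most 2.54 CPM and the second at most 10.1, both in loop to collecting duct-like cells of old replicate 1. Folds against sums with no count are not given.

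Other regions were higher in some other classes than in proximal tubule-like cells. Within Mrps6, at chr16:92105338-92106470, loop to collecting duct-like cells had 30.4, 30.4 and 25.7 CPM, against 19.8, 6.84 and 2.68 in proximal tubule-like cells, a log2 difference of 2.17 (edgeR adjusted p 0.0138). A second region there, at chr16:92103567-92104599, had 16.5, 15.8 and 23.5, against 3.29, 3.49 and 3.51. Within Mrpl1, whose product forms a mobile stalk of the large subunit, a region at chr5:96221631-96222728 had 46.3 and 85.2 CPM in B or plasma-like and 33.7 and 29.8 in macrophage or dendritic-like cells, against 6.59, 8.48 and 8.74 in proximal tubule-like cells. T or NK-like cells had 1.92 and 3.82 there, so the immune classes did not move together. The region was not particular to immune cells. Endothelium-like cells had 21.5, 16.9 and 26.7 CPM, a log2 difference of 1.57 (edgeR adjusted p 0.00443). Loop to collecting duct-like cells had 17.7, 16.9 and 11.8 and were not called (edgeR adjusted p 0.160). Whether these regions act on the gene they lie in was not tested.

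**Figure D4:**
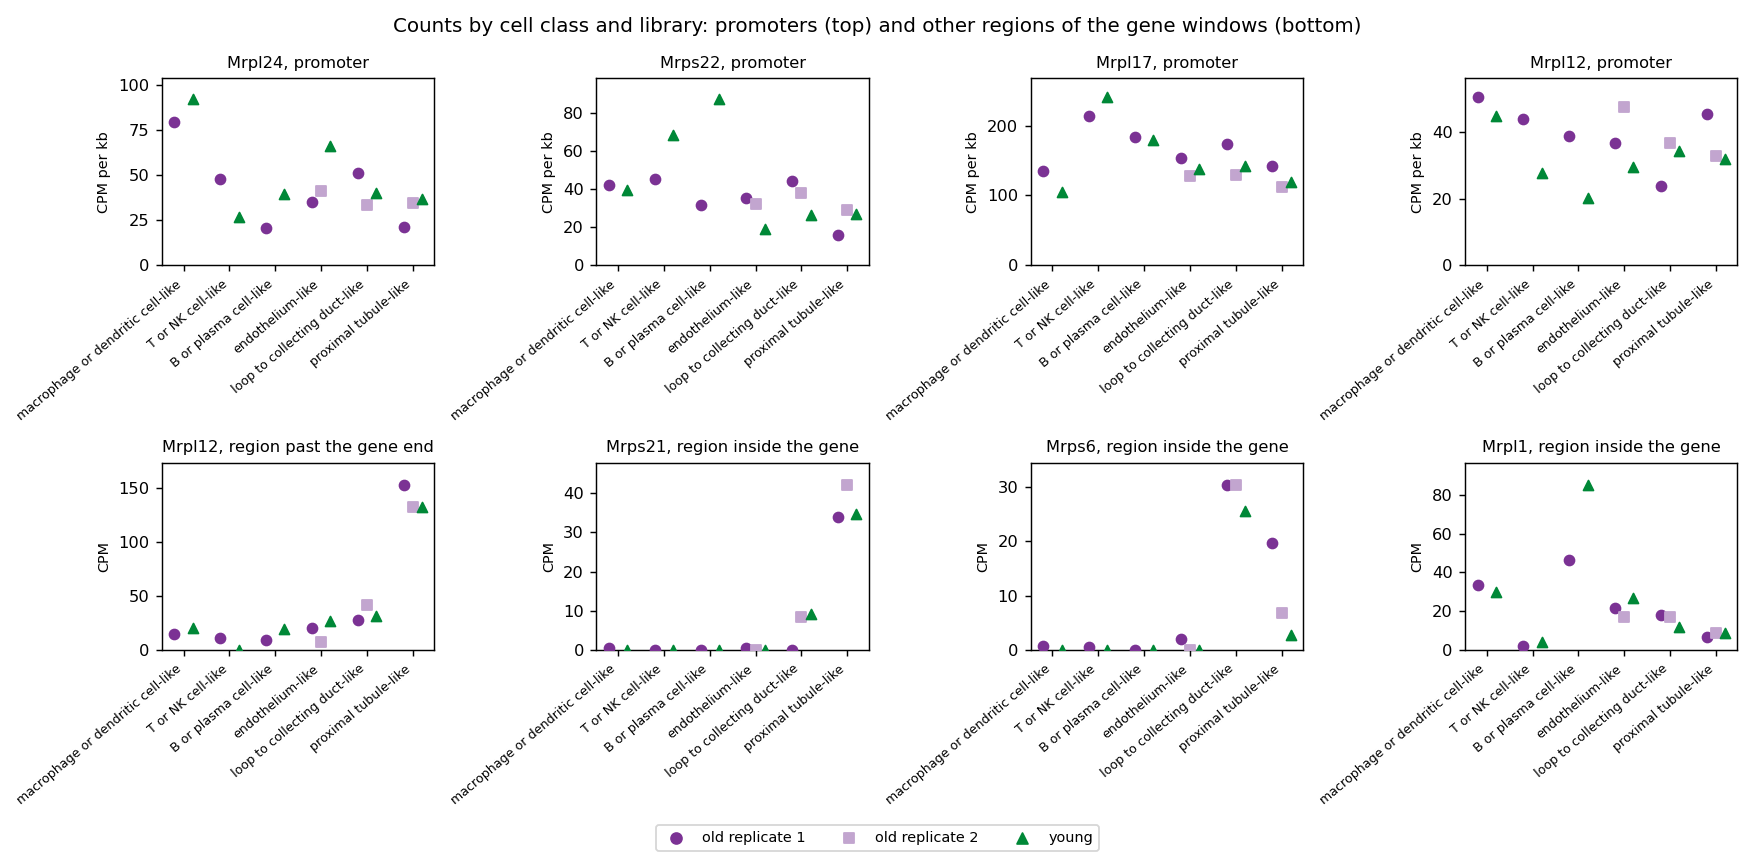
Counts by cell class and library at 4 promoters (top, CPM per kb) and 4 other regions of the gene windows (bottom, CPM), with the 2 old replicates and the young library as separate points. The 3 Mrpl12 promoter values of proximal tubule-like cells, from 31.9 to 45.6 CPM per kb, sit among those of the other classes, while its region past the gene end reaches 132.0 to 152.6 CPM in those cells alone.

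The 9 protein-coding members with no given start were Mrpl4, Mrpl13, Mrpl15, Mrpl19, Mrpl38, Mrpl54, Mrps28, Mrps34 and Mrps35. The strongest region of the window covered an end of the gene in all of them but Mrpl4, and its mean level over classes ranged from 15.8 CPM for Mrps34 to 90.1 for Mrps28. Over classes, 3 of these 9 regions were called, against the background of 69.8% of all regions. That of Mrpl54 had 78.9 and 74.5 CPM in T or NK-like and 81.2 and 79.2 in macrophage or dendritic-like cells, against 59.3, 48.0 and 46.0 in proximal tubule-like cells (edgeR adjusted p 0.000176), and those of Mrpl15 and Mrpl19 had adjusted p-values of 0.0377 and 0.0444. Mrps34, a small subunit protein particular to mitochondria, was not called (0.898).

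Old and young kidneys were compared within the 3 classes that all libraries held, to show whether the promoters changed between 3 and 75 weeks. In proximal tubule-like cells edgeR called 0 of 69 members (background 0.0426%), with no member at an unadjusted p under 0.05 and 0 calls by DESeq2. In loop to collecting duct-like cells it called 0 of 69 (background 0.199%), with 1 at an unadjusted p under 0.05, and in endothelium-like cells 0 of 68 (background 0.129%), with 3. DESeq2 called 0 in these classes too. The median log2 differences, old minus young, were -0.05, -0.08 and -0.08, against 0.00, 0.01 and 0.01 for all promoters. With 2 old libraries against 1 young the median SE of a member was 0.31, 0.40 and 0.47, so small changes were not detectable with these libraries.

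In proximal tubule-like cells the members ran from -0.44 for Mrpl21 to 0.25 for Mrpl10. Mrpl21 had 17.2 and 27.5 CPM in old replicates 1 and 2, against 32.7 in the young library, and Mrpl10 had 41.4 and 34.4, against 31.0. Mrps18b had 111.1 and 95.9, against 100.3, Mrps22 had 12.1 and 22.0, against 20.7, and Mrpl12 had 34.5 and 24.7, against 24.2. None of these had an unadjusted p under 0.05. These CPM are not per length.

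In loop to collecting duct-like cells the range was from -0.84 for Mrpl52 to 1.39 for Mrpl20. Mrpl20, a large subunit protein that acts early in assembly of the bacterial ribosome, had 31.5 and 24.3 CPM in the old libraries, against 10.4 in the young one, with an SE of 0.55 and an edgeR adjusted p of 0.690. In endothelium-like cells the range was from -1.08 for Mrps5 to 3.24 for Mrps6. Mrpl44 had 64.9 and 37.8 CPM, against 21.2, and Mrps24 had 42.1 and 40.3, against 17.6, with differences of 1.33 and 1.22 and edgeR adjusted p-values of 0.352 and 0.525.

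Mrps6 stood farthest from the rest. In endothelium-like cells its promoter had 40.1 and 26.5 CPM in old replicates 1 and 2, against 3.53 in the young library, from 81 and 21 counts, against 2. The fitted log2 difference, which rests on these 2 counts, was 3.24 ± 0.85 and missed the threshold (edgeR adjusted p 0.0664). On pooled fragments, 52 old against 1 young, the ratio was 10.5 with an exact 95% interval from 1.80 to 421.9, which covers counting error only and not the spread between libraries. The young value came from 50 cells and is under the 3 counts that a count of 0 allows. In the fit of single regions, added after the data had been seen, the same region passed (edgeR adjusted p 0.0403, background 0.621% of 23818 regions). The difference was -0.14 in proximal tubule-like and 0.50 in loop to collecting duct-like cells. The region also holds the start of Slc5a3, so the count cannot be assigned to Mrps6.

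The age difference was also compared between classes. The interaction of loop to collecting duct-like against proximal tubule-like cells called 0 of 69 members (background 0.0151%), with differences from -0.77 for Mrpl52 to 1.38 for Mrpl20 and an edgeR adjusted p of 1.00 for both. Gene windows gave 0 age calls among 78, 78 and 77 members in the proximal tubule-like, loop to collecting duct-like and endothelium-like classes (backgrounds 0.137%, 0.161% and 0.00542%). Old replicate 1 contributed 116 proximal tubule-like cells against 2840 of old replicate 2. An age fit was also run within the 1 proximal tubule-like cluster with at least 20 cells of every library, added after the data had been seen. That cluster held 47, 531 and 445 cells of old replicates 1 and 2 and the young library. No alternative with a test called a member. Beyond that fit, the part played by the different make-up of the libraries was not tested.

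**Figure D5:**
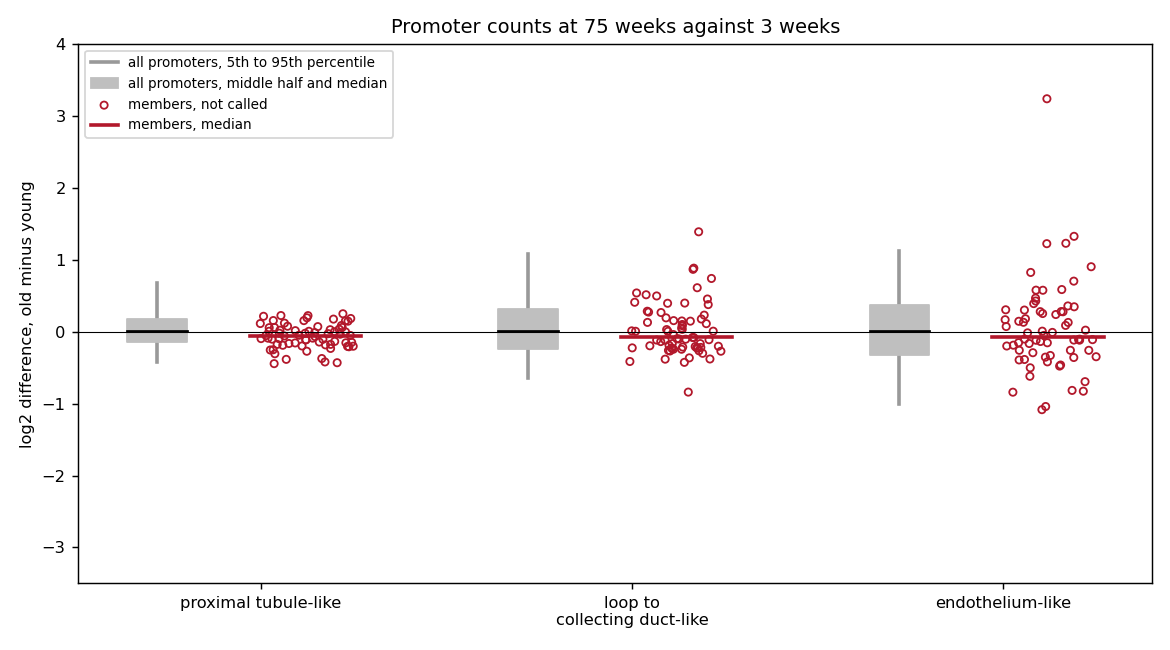
Log2 difference of promoter counts between 75 and 3 weeks in the 3 classes held by all libraries, with all promoters as grey bars and members as red points. Medians of the members are -0.05, -0.08 and -0.08, no point is filled as called, and Mrps6 in endothelium-like cells stands alone at 3.24.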

How the data were processed

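The deposited files hold raw counts (transposition events in each peak of each barcode), not normalized, and the authors called peaks on each library alone (Cell Ranger ATAC 2.1.0, mm10, per the file headers and the submitters' processing notes). Between 89.5% and 94.3% of the values were even, since both ends of a fragment are counted. Peaks were merged (bedtools 2.31.1), giving 250005 regions, of which 72317 had a peak in every library (common regions), which were used except in 1 alternative. Barcodes with at least 1000 counts were kept and simulated-doublet scoring removed 248, 133 and 135. Cells were clustered on binarised common regions outside the members' windows (latent semantic indexing, 30 components, Leiden at resolution 1.0) and named by marker lists, with a naming rule revised after the clusters had been seen. Of 19 clusters 4 stayed unnamed, with 141, 673 and 180 cells. Starts and promoter sequences came from RefSeq GRCm38.p6.

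Counts were summed per library and class (at least 20 cells) and tested with edgeR 4.0.16 (quasi-likelihood, TMM, filterByExpr, adjusted over all features). The script was tested on simulated data. DESeq2 1.42.0 and other settings were alternatives. The members, gene lists and marker lists were chosen with earlier results of these data known. The rule for named members took, per comparison, called members (up to 10) and the 5 highest and 5 lowest, then the 8 highest and 8 lowest levels, members with no promoter region, up to 5 with a shared region and a list with distinct roles. For the age comparisons, loop to collecting duct-like and endothelium-like cells only the farthest are printed, and for windows only counts. Single regions outside promoters were picked after their values were seen. Folds against sums with 0 counts are not given. A count of 0 was taken to allow up to 3 counts.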

Additional observations from a re-analysis of the deposited data

How the results depend on the processing

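Total counts without TMM raised the members called to 35 over all classes, and to 33 in macrophage or dendritic-like, 37 in T or NK-like, 28 in B or plasma-like, 4 in loop to collecting duct-like and 19 in endothelium-like cells. In the same order of single classes 59.4%, 64.1%, 52.6%, 14.0% and 46.0% of all promoters were called. For gene windows total counts raised the members called to 38 in macrophage or dendritic-like, 29 in endothelium-like and 8 in loop to collecting duct-like cells. Under it Mrpl45 in T or NK-like cells turned to 0.066. RLE gave 9 in T or NK-like cells (40.1% of all promoters) and, for windows, 14 in macrophage or dendritic-like cells. DESeq2 gave 9 in endothelium-like cells. With all merged regions in place of the common ones, the windows gave 16 in B or plasma-like and 14 in macrophage or dendritic-like cells. Counts given here with no share of all promoters or windows beside them are not read as a trait of the members. The cause of the shifts in this paragraph was not tested, other than that the scalings move the median of all promoters.

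Leaving out each library in turn gave from 8 to 13 members over all classes, from 2 to 6 in macrophage or dendritic-like, from 7 to 10 in T or NK-like, from 3 to 13 in B or plasma-like and from 1 to 3 in endothelium-like cells. For windows, leaving out either old library gave from 14 to 18 in macrophage or dendritic-like, from 18 to 24 in T or NK-like, from 17 to 20 in B or plasma-like, from 4 to 17 in endothelium-like and from 2 to 5 in loop to collecting duct-like cells, with 2, 4 and 17 without old replicate 2 and 14 and 18 without old replicate 1 as the low ends. None of these counts with a library left out is set against the share of all promoters or windows called in the same fit. Thinning lowered the mean share of proximal tubule-like cells with a promoter count to 5.55%, against 22.7% unthinned.

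Over 732 checks of 83 called pairs of a member and a class, 39 for promoters and 44 for windows, 580 stayed called in the same direction, 151 kept the direction and missed the threshold, and 1 reversed. No age comparison of promoters or windows called a member under any alternative with a test. The age fits without 1 old library have 1 library in each group and gave values with no test. No paired analysis was possible because the labels link no old sample to the young one.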
